A study of Mus with 6 samples.

Results

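Genes of protein translocation into the endoplasmic reticulum (ER) and of protein processing there were examined in mouse cardiac microvascular endothelial cells with and without Ccl28. The rule for the genes uses the annotation and no measured value: every row that the deposited expression table assigns to the KEGG pathways of ER protein processing or protein export, without heat shock proteins, DnaJ and BAG cochaperones and 6 signalling and apoptosis genes (Eif2s1, Eif2ak2, Nfe2l2, Bax, Bak1 and Bcl2). The rule was written with earlier results of these data known. This gave 151 of the 181 pathway genes and of the 20893 genes in the table. The study set 3 libraries of Ccl28 knockout cells (KO) against 3 of wild-type cells (WT), all from hearts after ligation of the left coronary artery, with CD31-positive and CD45-negative cells taken with magnetic beads. Both genotypes carry the replicate numbers 2, 3 and 4. The genotype label of KO replicates 3 and 4 names a different gene number from their titles, and the titles were followed. Strain, sex, age, the time after ligation, the knockout allele and whether animals were pooled were not given in the sources used here, and nothing states that the replicates came from separate animals. The p-values therefore reflect variation among these 6 libraries, part of which may be technical.

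Secreted and membrane proteins are led to the ER by the signal recognition particle (SRP), pass through the Sec61 channel, lose their signal peptide to signal peptidase and receive an N-linked glycan from oligosaccharyltransferase. Trimming of that glycan lets calnexin and calreticulin bind the folding protein, COPII vesicles carry folded cargo to the Golgi, and ER-associated degradation (ERAD) returns misfolded protein to the cytosol for the proteasome. The sensors encoded by Ern1, Eif2ak3 and Atf6 start the unfolded protein response when folding falls behind. Endothelial cells depend on this route for von Willebrand factor, basement membrane proteins and their surface receptors.

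The libraries held 36004457 to 40500067 reads assigned to genes. Ccl28 had 16, 11 and 24 reads in WT replicates 2, 3 and 4 and 0 reads in each KO library (exact two-sided permutation p = 0.1, and 3 against 3 libraries cannot give a smaller one). Expression is given as FPKM, fragment counts scaled for transcript length and for library size, so that levels of different genes can be set side by side. Over the 6 libraries Pecam1 ranged from 561 to 744 FPKM, Cdh5 from 511 to 781 and Ptprc, which encodes CD45, from 0.871 to 1.71. In the marker lists, 4 of 8 endothelial genes were lower and 1 higher in KO (summed level 3540 to 3650 FPKM in WT, 3200 to 3520 in KO). In the monocyte and macrophage list 7 of 11 were higher (94.6 to 234 against 232 to 356 FPKM), in the neutrophil list 3 of 6 (14.8 to 19.2 against 35.3 to 56.3) and in the lymphocyte list 3 of 8 (8.34 to 10.6 against 17.3 to 27). Of 7 fibroblast markers 6 were lower (26.8 to 31.1 against 12.4 to 15.1) and of 7 mural cell markers 6 (345 to 456 against 234 to 365), while 2 of 7 cardiomyocyte markers were higher and 1 lower (101 to 146 against 131 to 156). Of 6 plasma cell markers only Sdc1 was tested, and it was not called. It made up most of their summed level (10.8 to 11.9 against 10 to 11.8), and the other 5 summed to 0.61 to 0.805 FPKM in WT and 0.875 to 1.56 in KO. No marker was at 0 in all 6 libraries. Over all tested genes 18.3% were higher and 25.8% lower. With a trend on transcript length removed, as described below, 2 monocyte and macrophage, 3 neutrophil and 3 lymphocyte markers were higher. No endothelial marker was then higher and 3 were lower, while 5 fibroblast and 5 mural cell markers were lower. Of the cardiomyocyte markers 1 was then higher and none was lower. The part of these cells in the results below was not tested, and in bulk samples fewer cells of a type and less RNA per cell cannot be told apart.

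Across the whole set, KO and WT differed in many genes and by small amounts. The limma test on log2(FPKM + 1) took genes that reached 1 FPKM in 3 or more libraries, and "higher" or "lower" means a Benjamini-Hochberg adjusted p under 0.05 over all tested genes. Of the 151 genes 137 entered the test, and 26 were higher and 36 lower in KO. The share called, 45.3%, was close to the 44.2% of all 10806 tested genes (18.3% higher, 25.8% lower). The median log2 fold change was -0.10 against -0.03 for all tested genes. With median-ratio scaling between libraries the split was 34 higher and 31 lower, with quantile normalization 24 and 43. Over all 10806 tested genes these settings gave 2511 higher and 2485 lower, and 2207 and 2359. The count of lower members was 22 without KO replicate 4, 21 without WT replicate 4 and 21 with no expression filter. Over all genes it was 2157, 1981 and 2279, against 2790 in the main test. In the authors' deposited table, 33 of the 150 listed genes were higher and 31 lower at q under 0.05, where 13.6% and 15.7% of all listed genes were. Over the 10806 genes tested here, the shares in the authors' deposited table were 21.1% higher and 23% lower, close to the 22% and 20.7% of the 150 members. None of the 62 called genes reached a log2 fold change of 1: the highest was 1.57-fold up and the lowest 1.96-fold down. The WT and KO ranges were separate for each called gene except the disulfide isomerase gene Pdia4, named here because of that overlap (WT from 41.1 to 54.7 FPKM, KO from 36 to 42.8, adjusted p = 0.0447, and 0.0351 after trend removal). Separation of ranges was not counted over all called genes, so it is not read as a trait of the members. Pdia4 lost its call without KO replicate 2 (adjusted p = 0.0864), KO replicate 4 (adjusted p = 0.147), WT replicate 2 (adjusted p = 0.132) or WT replicate 4 (adjusted p = 0.149).

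Transcript length went with the direction of change in these genes as in all genes. The length was derived from the deposited values and is the one that their FPKM scaling implies. The lengths of the transcripts expressed in these cells were not measured. Among the 26 tested members under 2000 nt, 18 were higher and none was lower in limma, and among the 22 of 6000 nt and more none was higher and 15 were lower. Over all tested genes the same bands had 54.7% higher and 1.78% lower, and 1.25% higher and 65.3% lower. The rank correlation (Spearman's rho) of fold change with length was -0.70 across the 137 members and -0.72 across all tested genes, which are not independent replicates. When a trend on log2 length was removed from each library, 14 members were higher and 18 lower, against 9.26% and 9.42% of all tested genes, and 21 of the 62 calls kept their direction and passed (7 higher, 14 lower). For the tested genes described below, the result after trend removal is given too, as a log2 fold change, an adjusted p or both. Genotype and the length trend cannot be told apart across these 6 libraries.

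**Figure D1:**
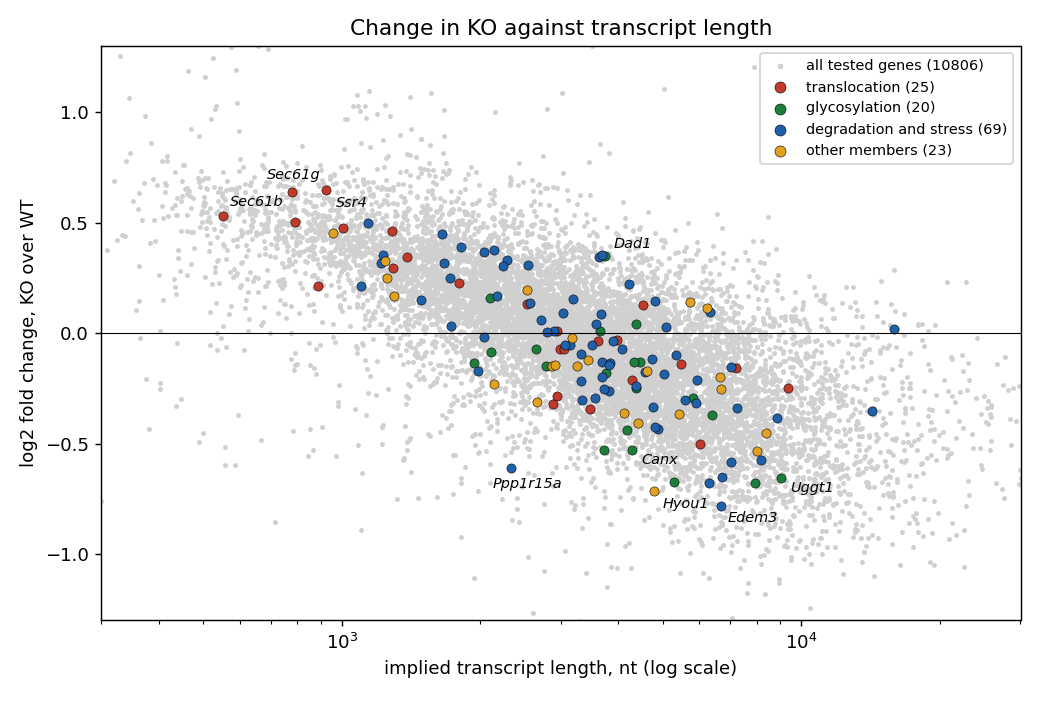
Log2 fold change in KO over WT (y axis, log2(FPKM + 1) scale) against implied transcript length in nt (x axis, log scale) for all tested genes in grey and for the 137 tested members, coloured by role. Short transcripts such as Sec61b and Ssr4 lie above 0 and long ones such as Uggt1 and Edem3 below, along the cloud of all genes, while Ppp1r15a lies well below genes of its own length; 64 genes, none of them members, lie outside the drawn range.

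Calls were counted in 3 broad groups. In the translocation group (SRP and its receptor, translocon, signal sequence receptor and signal peptidase) 9 of 25 tested genes were higher and 4 lower, with a median log2 fold change of 0.01. In the glycosylation group (oligosaccharyltransferase, glycan trimming and calnexin cycle) 1 of 20 was higher and 8 were lower, with a median of -0.17. In the degradation and stress group 14 of 69 were higher and 16 lower, with a median of -0.06. The shares higher and lower were 36% and 16%, 5% and 40%, and 20.3% and 23.2%. Over all tested genes they were 18.3% and 25.8%, with a median of -0.03. The role lists below stand beside the same all-gene shares. The median implied lengths of the groups were 2934, 4231 and 3659 nt, against 3429 nt for all tested genes. After trend removal the counts of the groups became 2 higher and 4 lower, 1 higher and 6 lower, and 9 higher and 5 lower. The medians were then 0.04, -0.12 and 0.01. Of the calls after trend removal, 1 and 4, 1 and 4, and 5 and 4 were also made as deposited, in the same direction. Over all tested genes 9.26% were higher and 9.42% lower after trend removal. Quantile normalization raised the glycosylation count to 14 lower. Leaving out KO replicate 4 or WT replicate 4 left 2 lower genes in translocation in either case and 8 in degradation and stress in either case; glycosylation had 7 to 9 lower genes under each omission, and 2 higher ones without WT replicate 2. The difference between the groups was not tested, since the members of a group share their libraries.

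The median position of the glycosylation genes in a library, as the deviation from each gene's mean on the log2 scale, was 0.18, 0.00 and 0.12 in WT replicates 2, 3 and 4 and -0.09, -0.03 and -0.18 in KO replicates 2, 3 and 4. WT replicate 3 lay nearest to the KO libraries, and the ranges did not overlap. For all tested genes the values were 0.06, -0.02 and 0.04 in WT and -0.01, -0.03 and -0.02 in KO. After trend removal the glycosylation genes had values of 0.12, 0.01 and 0.08 against -0.08, 0.00 and -0.14. WT replicate 3 and KO replicate 3 were then nearly level. The values of all tested genes lay between -0.001 and 0.003 after trend removal.

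**Figure D2:**
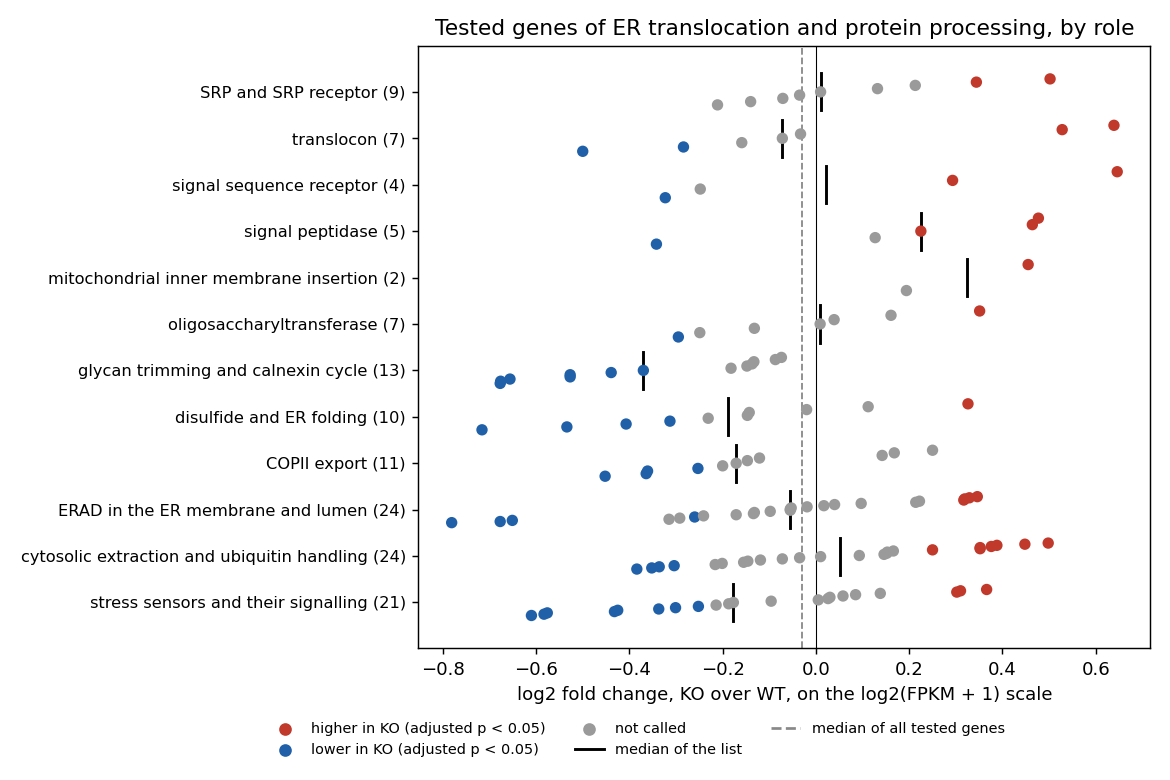
Log2 fold change in KO over WT of each tested gene (points), by role list with the number tested in brackets; red and blue points passed the test and black bars are list medians. The glycan trimming and calnexin cycle list has no point above 0 and the lowest median, -0.37, while the translocation lists hold points on either side.

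Among genes of targeting to the ER 22.2% were called, against 44.2% of all tested genes, and this difference was not tested. Of 9 tested genes of SRP and its receptor, 2 were higher and none was lower in limma (none lower at unadjusted p under 0.05, and none with limma-voom on recovered reads). Median-ratio scaling and limma-voom each gave 3 higher. Srp14 and Srp9 encode the small proteins that bind the Alu end of the SRP RNA and pause translation. Srp14 (gene ID 20813, chromosome 2, 118475843 to 118479696 in GRCm38) had 106, 97.8 and 96 FPKM in WT replicates 2, 3 and 4 and 141, 133 and 153 FPKM in the KO libraries. All KO libraries were above all WT libraries, with a log2 fold change of 0.50 (SE 0.08, adjusted p = 0.00102). Srp9 went from 33 ± 2.34 to 42.1 ± 1.3 FPKM (mean ± SD, n = 3 per genotype; adjusted p = 0.00507). After trend removal the log2 fold change of both was 0.05 (adjusted p = 0.553 and 0.603). Srpr, the receptor subunit that docks SRP on the ER, had 65.5 ± 2.95 FPKM in WT and 65.9 ± 2.27 in KO (log2 fold change 0.01, adjusted p = 0.919, -0.11 with quantile normalization and -0.01 after trend removal), less than the spread between replicates. Srp54a and Srp54c did not pass (adjusted p = 0.244 and 0.314; after trend removal 0.76 and 0.539), and Srp54b was under the filter; these near-identical copies can share reads, so their separate levels are uncertain.

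Of the 3 subunits of the Sec61 channel, 2 were higher in KO. Sec61a1 encodes the pore itself, and Sec61b and Sec61g encode the small tail-anchored subunits. Sec61b (gene ID 66212, chromosome 4, 47474661 to 47483233) had 89.2, 83.2 and 80.4 FPKM in WT and 114, 126 and 126 FPKM in KO. The lowest KO library was above the highest WT library, and the log2 fold change was 0.53 (SE 0.07, adjusted p = 0.000721). Sec61g had 56.5, 46 and 43.3 FPKM in WT and 69.7, 76.4 and 81.7 FPKM in KO, again without overlap (log2 fold change 0.64, adjusted p = 0.0013). Sec61a1 had 70.6, 59.3 and 67.6 FPKM in WT and 66.4, 66.1 and 55.4 FPKM in KO, so the ranges overlapped (log2 fold change -0.07, adjusted p = 0.561).

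The order of the channel subunits by FPKM, which is scaled to length, was therefore different in the genotypes. In WT it was Sec61b, Sec61a1, Sec61g, and in KO Sec61b, Sec61g, Sec61a1, and in neither genotype did neighbours in this order overlap. The ratio of Sec61g to Sec61a1 was 0.8, 0.776 and 0.641 in WT and 1.05, 1.16 and 1.47 in KO (exact two-sided permutation p = 0.1, the smallest possible), and that of Sec61b to Sec61a1 was 1.19 to 1.4 and 1.72 to 2.27. After trend removal no difference between genotypes was called for any of these 3 genes: the log2 fold changes were -0.01 for Sec61b (adjusted p = 0.911), 0.18 for Sec61g (adjusted p = 0.149) and -0.08 for Sec61a1 (adjusted p = 0.563). The implied lengths were 552, 779 and 3039 nt.

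Among the helpers of the channel, Sec63 and Tram1 were lower. Sec63, a partner of Sec62 that recruits the chaperone BiP to the channel, had 22, 20 and 21.2 FPKM in WT and 15.4, 15.5 and 13.1 FPKM in KO (log2 fold change -0.50, SE 0.09, adjusted p = 0.00169). The ranges were separate, and with the trend removed the log2 fold change was -0.23 (adjusted p = 0.05, just under the threshold). Tram1, a membrane protein beside the channel, fell 1.23-fold, from 33.2 ± 3.31 to 27.1 ± 2.73 FPKM (adjusted p = 0.0374), and had a log2 fold change of -0.30 with the trend removed (adjusted p = 0.0406). The call of Tram1 was lost with median-ratio scaling (adjusted p = 0.0542), with no expression filter (adjusted p = 0.115) and without KO replicate 3 (adjusted p = 0.0568), KO replicate 4 (adjusted p = 0.129), WT replicate 2 (adjusted p = 0.111) or WT replicate 4 (adjusted p = 0.0731).

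The signal sequence receptor, a complex of 4 subunits also called TRAP that sits on the channel and helps some proteins enter it, had 2 higher genes and 1 lower. Ssr4 (gene ID 20832, chromosome X, 73787023 to 73790828) had 68.2, 67.3 and 65.6 FPKM in WT and 106, 103 and 108 FPKM in KO. The gap between genotypes was far wider than the spread within either, with a log2 fold change of 0.65 (SE 0.06, adjusted p = 0.000321), and 0.23 after trend removal (adjusted p = 0.0224). Ssr2 was higher too, with 93.5, 77.2 and 87.3 FPKM against 103, 105 and 108 FPKM (adjusted p = 0.0149), but its call was lost with quantile normalization (adjusted p = 0.0982) and its log2 fold change was -0.03 with the trend removed.

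Ssr3 was lower, with 68.6, 55.3 and 62.1 FPKM in WT and 50.7, 51.7 and 45.4 FPKM in KO (log2 fold change -0.32, adjusted p = 0.017), and -0.35 with the trend removed (adjusted p = 0.0178). The Ssr3 call did not hold without KO replicate 4 (adjusted p = 0.0644) or WT replicate 4 (adjusted p = 0.0542) and with no expression filter (adjusted p = 0.0665). Ssr1, the subunit with the longest transcript at 9339 nt, had 17.2 ± 2.35 FPKM in WT and 14.3 ± 1.1 in KO and did not pass (adjusted p = 0.0793), except without WT replicate 3 (adjusted p = 0.0189). After trend removal Ssr1 was at 0.15 on the log2 scale (adjusted p = 0.272). The ratio of Ssr4 to Ssr3 was 0.994 to 1.22 in WT and 1.99 to 2.38 in KO. Ssr4 and Ssr3 were the 2 of the 4 subunits that passed in the same direction with and without the length trend.

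**Figure D3:**
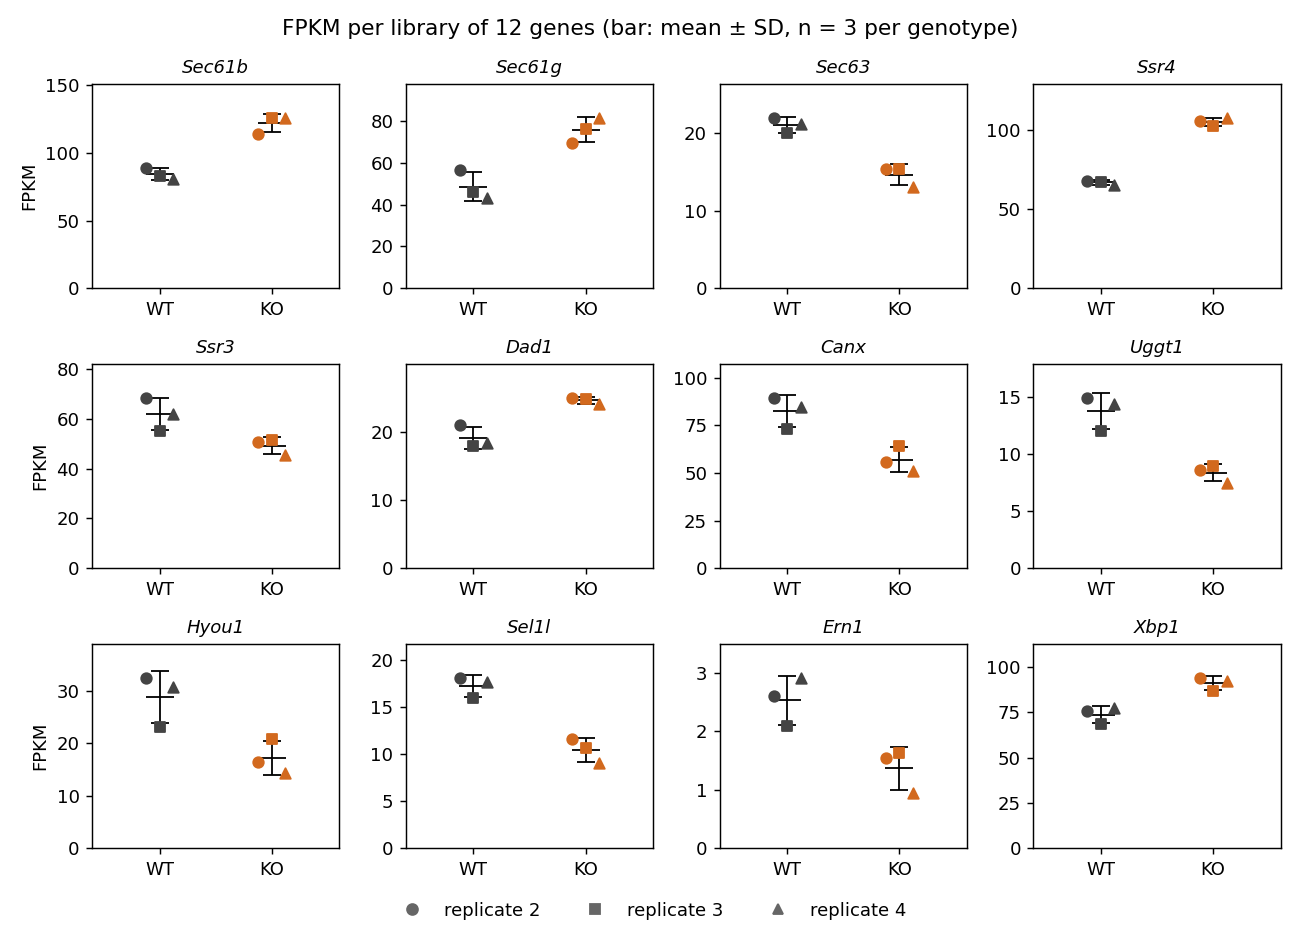
FPKM (y axis, from 0) in each WT and KO library for 12 genes, with marker shapes for the replicate numbers and bars for mean ± SD (n = 3 per genotype). The KO points of Sec61b, Sec61g, Ssr4, Dad1 and Xbp1 lie above all WT points, and those of Sec63, Ssr3, Canx, Uggt1, Hyou1, Sel1l and Ern1 below.

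Signal peptidase, which cuts the signal peptide as a protein enters the lumen, had 3 higher and 1 lower of 5 tested genes. Spcs1, a small accessory subunit, went from 50.6 ± 4.85 to 70.7 ± 3.42 FPKM (log2 fold change 0.48, adjusted p = 0.00175). The catalytic subunit genes Sec11c and Sec11a were higher by 1.40-fold and 1.17-fold (adjusted p = 0.00442 and 0.0346). Spcs3, a further accessory subunit, was lower, at 20 ± 1.99 against 15.6 ± 0.868 FPKM (adjusted p = 0.0116), and the ratio of Spcs1 to Spcs3 was 2.32 to 2.73 in WT and 4.27 to 4.98 in KO. With the length trend removed the log2 fold changes were 0.08 for Spcs1, 0.14 for Sec11c and 0.02 for Sec11a, which no longer passed (adjusted p = 0.385, 0.298 and 0.817), and -0.29 for Spcs3, which did (adjusted p = 0.031). Spcs2 had 24.1 ± 0.361 and 26.4 ± 1.65 FPKM (adjusted p = 0.179, and adjusted p = 0.0254 after trend removal). Sec11a lost its call without KO replicate 2 or WT replicate 4 (adjusted p = 0.0672 each), KO replicate 4 (adjusted p = 0.111) or WT replicate 3 (adjusted p = 0.102), and with replicate number as a block (adjusted p = 0.0703), no expression filter (adjusted p = 0.0608), trend removal or quantile normalization (adjusted p = 0.0509).

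The protein export pathway of KEGG also holds 3 genes of the mitochondrial inner membrane. Immp1l, a subunit of its peptidase, was higher (15.6 ± 1.35 to 21.9 ± 3.51 FPKM, adjusted p = 0.0101, and adjusted p = 0.0592 with no expression filter), with a log2 fold change of 0.05 once the trend was removed. Oxa1l, an insertase, did not pass (adjusted p = 0.119; it passed without KO replicate 3 and with median-ratio scaling, adjusted p = 0.0491 each, and with limma-voom, adjusted p = 0.0393, but not after trend removal, adjusted p = 0.355), and Immp2l was under the filter.

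Oligosaccharyltransferase, the enzyme that attaches the glycan, had 1 higher and 1 lower gene of 7 tested, and the other 5 did not pass. Dad1, a small subunit, had 21, 18 and 18.4 FPKM in WT and 25, 24.8 and 24 FPKM in KO (log2 fold change 0.35, SE 0.08, adjusted p = 0.00611). KO and WT did not overlap, and the log2 fold change was 0.44 after trend removal (adjusted p = 0.00494). The deposited values imply a length of 3735 nt for Dad1, and the result after trend removal rests on it. How that result would change with another length was not tested. Stt3a, the catalytic subunit that works at the channel, had 26.2, 21.5 and 25.5 FPKM in WT and 20.2, 20.2 and 18.5 FPKM in KO (log2 fold change -0.29, adjusted p = 0.0235). Stt3a lost its call without KO replicate 4 (adjusted p = 0.0781), WT replicate 2 (adjusted p = 0.0697) or WT replicate 4 (adjusted p = 0.0913), with a replicate block (adjusted p = 0.0526), with no expression filter (adjusted p = 0.0703) and with the trend removed (log2 fold change -0.04). Stt3b, the other catalytic subunit, had 16.2 ± 0.877 and 13.5 ± 1.86 FPKM (adjusted p = 0.0732, and adjusted p = 0.0439 without KO replicate 3), and -0.10 on the log2 scale after trend removal (adjusted p = 0.493). Ddost, the most abundant of the uncalled subunits, had 88.3 ± 10.2 and 98.5 ± 2.98 FPKM (adjusted p = 0.153), but passed without WT replicate 2 (adjusted p = 0.0176), with median-ratio scaling (adjusted p = 0.0474) and under limma-voom (adjusted p = 0.0403). Trend removal left Ddost at 0.02 on the log2 scale (adjusted p = 0.894). Dad1 to Stt3a was 0.721 to 0.836 in WT and 1.23 to 1.3 in KO.

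The glycan trimming and calnexin cycle list had the lowest median of the role lists. Of 13 tested genes 7 were lower and none was higher in limma (none higher at unadjusted p under 0.05 or with limma-voom), with a median log2 fold change of -0.37 against -0.03 for all tested genes. With the length trend removed 6 were lower, of which 4 were also lower as deposited, and the median was -0.26. With quantile normalization 12 of the 13 were lower. The 13 transcripts had a median implied length of 4173 nt, against 3429 nt for all tested genes.

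Canx, which encodes the membrane-bound lectin chaperone calnexin, had 89.5, 73 and 84.6 FPKM in WT and 55.9, 63.9 and 50.8 FPKM in KO (gene ID 12330, chromosome 11, 50293957 to 50325673). The highest KO library stayed below the lowest WT library, with a log2 fold change of -0.53 (SE 0.1, adjusted p = 0.00302), and -0.38 with the trend removed (adjusted p = 0.0203). Calr, for its soluble counterpart calreticulin, was the most abundant gene of the set, with 448, 350 and 394 FPKM in WT and 346, 388 and 346 FPKM in KO. These ranges overlapped (log2 fold change -0.14, adjusted p = 0.288), whereas Calr was lower once the trend was removed, at -0.31 on the log2 scale (adjusted p = 0.0381), and at -0.45 under quantile normalization (adjusted p = 0.00427).

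Uggt1 encodes the glucosyltransferase that reads the folding state of a glycoprotein and returns it to calnexin. It had 15, 12 and 14.4 FPKM in WT and 8.64, 8.97 and 7.52 FPKM in KO, without overlap (log2 fold change -0.66, SE 0.1, adjusted p = 0.0011), and -0.26 with the trend removed (adjusted p = 0.0553). The mannosidase genes Man1a and Man1a2, whose products trim mannose after the ER, fell 1.69-fold and 1.75-fold. Man1a went from 12.8 ± 2.4 to 7.61 ± 0.828 FPKM (adjusted p = 0.00299) and kept its call with the trend removed (log2 fold change -0.45, adjusted p = 0.0282), and Man1a2 went from 6.59 ± 0.734 to 3.76 ± 0.662 FPKM (adjusted p = 0.00217), with a log2 fold change of -0.32 and an adjusted p of 0.0615 once it was removed. Lman1, a lectin that carries glycoproteins such as clotting factors out of the ER, and Ganab, the catalytic subunit of glucosidase II, are named after their values were seen. They went from 31.4 ± 3.07 to 21.5 ± 3.06 FPKM (adjusted p = 0.00427) and from 52.4 ± 3.44 to 38.5 ± 4.39 FPKM (adjusted p = 0.00487), and both passed with the trend removed (adjusted p = 0.0191 and 0.0297). The call of each lower gene named in this paragraph and of Canx held under every omission of 1 library.

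Folding enzymes and ER chaperones left in the set had 1 higher and 4 lower of 10 tested genes, with a median of -0.19. Hyou1, a large chaperone related to Hsp70 and a target of the unfolded protein response, had 32.4, 23.1 and 30.7 FPKM in WT and 16.5, 20.7 and 14.2 FPKM in KO. The ranges were separate by a small margin between WT replicate 3 and KO replicate 3, with a log2 fold change of -0.72 (SE 0.15, adjusted p = 0.00421), and -0.53 with the trend removed (adjusted p = 0.0295). Rrbp1, a ribosome-binding protein of rough ER, fell from 51.2 ± 3.96 to 35.1 ± 4.19 FPKM (adjusted p = 0.00212), with a log2 fold change of -0.17 once the trend was removed (adjusted p = 0.162). Erp29, a small lumenal protein, was higher, at 79.3 ± 5.8 against 99.6 ± 4.47 FPKM (adjusted p = 0.00695), and -0.01 on the log2 scale with the trend removed.

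P4hb, the main protein disulfide isomerase gene, did not pass (211 ± 22.3 and 190 ± 10.1 FPKM, adjusted p = 0.2, and adjusted p = 0.00939 with quantile normalization), and trend removal gave -0.18 on the log2 scale (adjusted p = 0.125). Ero1a, which reoxidises that enzyme, was lower at 6.28 ± 1 against 4.49 ± 0.694 FPKM (adjusted p = 0.0276), and lost its call without KO replicate 2 (adjusted p = 0.0647), KO replicate 4 (adjusted p = 0.097), WT replicate 2 (adjusted p = 0.0654) or WT replicate 4 (adjusted p = 0.111), as a blocked fit (adjusted p = 0.0674), with quantile normalization (adjusted p = 0.0773), with no expression filter (adjusted p = 0.111) and with the trend removed (adjusted p = 0.161).

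In the COPII coat, which buds vesicles from the ER, 4 of 11 tested genes were lower and none was higher in limma (1 higher at unadjusted p under 0.05, and 2 with limma-voom). Of the 4 cargo-binding Sec24 paralogs, 3 were among them. Sec24b went from 13.7 ± 0.322 to 10.4 ± 0.983 FPKM (adjusted p = 0.00727), Sec24a from 1.6 ± 0.212 to 0.905 ± 0.202 (adjusted p = 0.012) and Sec24c from 29 ± 1.78 to 24.2 ± 1.77 (adjusted p = 0.0284), while Sec24d, named after its values were seen, was not called (log2 fold change -0.20, adjusted p = 0.174, and 0.11 with adjusted p = 0.48 after trend removal). The inner coat gene Sec23a fell from 10.1 ± 0.484 to 7.64 ± 0.618 FPKM (adjusted p = 0.00843). None of the 4 lower genes passed with the trend removed, where the log2 fold changes were -0.13 for Sec24b, -0.08 for Sec24a, 0.05 for Sec24c and -0.23 for Sec23a. Sec24c lost its call without KO replicate 4 (adjusted p = 0.0967), WT replicate 2 (adjusted p = 0.0801) or WT replicate 4 (adjusted p = 0.0629), with no expression filter (adjusted p = 0.0635) and with a replicate block (adjusted p = 0.0522), and Sec24a without WT replicate 4 (adjusted p = 0.0507). Sec13, of the outer coat, had 95.8 ± 5.59 and 108 ± 2.63 FPKM and did not pass (adjusted p = 0.0722), but did without WT replicate 2 (adjusted p = 0.0314), with median-ratio scaling (adjusted p = 0.0187) and under limma-voom (adjusted p = 0.0194). Its log2 fold change of 0.17 turned to -0.15 after trend removal (adjusted p = 0.113).

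ERAD genes of the ER membrane and lumen went in both directions, with 4 higher and 4 lower of 24 tested. The lower ones were led by Marchf6, Sel1l and Edem3. Sel1l, the adaptor of the Hrd1 ubiquitin ligase complex, had 18.1, 16 and 17.7 FPKM in WT and 11.6, 10.7 and 9.09 FPKM in KO (gene ID 20338, chromosome 12, 91806043 to 91849157). KO lay well below WT (log2 fold change -0.68, SE 0.1, adjusted p = 0.000825), and -0.39 remained with the trend removed (adjusted p = 0.0132). Marchf6, another ER ubiquitin ligase, had 13.8, 11.9 and 13.5 FPKM against 8.61, 7.76 and 7.54 FPKM (adjusted p = 0.000699; with the trend removed -0.34 on the log2 scale, adjusted p = 0.0157).

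The Edem genes encode proteins that trim mannose and mark glycoproteins for degradation, and 1 of them was lower and 1 higher. Edem3 had 5.88, 5.01 and 6.29 FPKM in WT and 3.35, 3.05 and 2.37 FPKM in KO, the greatest fall among tested members (log2 fold change -0.78, SE 0.12, adjusted p = 0.00105), and -0.47 with the trend removed (adjusted p = 0.0153). Edem2 was higher, with 18.2, 18.5 and 19.4 FPKM in WT and 23.8, 23.1 and 24.3 FPKM in KO (log2 fold change 0.33, adjusted p = 0.00441), and 0.22 with the trend removed (adjusted p = 0.0456). Edem1 had 10.2 ± 1.35 and 8.01 ± 1.14 FPKM and did not pass (adjusted p = 0.058), but did without KO replicate 3 (adjusted p = 0.0336) or WT replicate 3 (adjusted p = 0.0223), with an FPKM of 5 as the filter (adjusted p = 0.0472) and under limma-voom (adjusted p = 0.0434). After trend removal Edem1 was at -0.05 on the log2 scale (adjusted p = 0.771). Edem2 to Edem3 was 3.09 to 3.69 in WT and 7.12 to 10.2 in KO. This ratio is no further support, since the ranges of each gene were already separate, in opposite directions. The same holds for the ratios of Ssr4 to Ssr3, Spcs1 to Spcs3, Dad1 to Stt3a and Xbp1 to Ern1.

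Syvn1, the Hrd1 ligase gene itself, had 13.8 ± 1.69 and 12.5 ± 0.395 FPKM (adjusted p = 0.28), and Herpud1, a stress-induced partner of the ligase, 50 ± 2.11 and 49.3 ± 2.07 FPKM (adjusted p = 0.841). Herpud1 had a log2 fold change of -0.02 that turned to 0.03 with median-ratio scaling. After trend removal neither Syvn1 (adjusted p = 0.758) nor Herpud1 (adjusted p = 0.105) passed. Ube2j2, an ERAD ubiquitin-conjugating enzyme named after its values were seen, was higher (14.1 ± 1.06 to 18.1 ± 1.3 FPKM, adjusted p = 0.00974), also with the trend removed (adjusted p = 0.0094).

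Cytosolic extraction and ubiquitin handling had 7 higher and 4 lower of 24 tested genes. Rbx1, the RING subunit of cullin ligases, went from 57.8 ± 4.26 to 79 ± 2.18 FPKM (adjusted p = 0.00132), and Fbxo6, an F-box protein that binds glycans, from 17.6 ± 0.75 to 23.2 ± 1.94 FPKM (adjusted p = 0.00512). Both passed with the trend removed (adjusted p = 0.0313 and 0.0382). Stub1, a chaperone-linked ubiquitin ligase, and Ubxn1, a cofactor of the Vcp segregase, were higher by 1.28-fold and 1.42-fold (adjusted p = 0.00226 and 0.00301) but had log2 fold changes of 0.02 and 0.14 with the trend removed, which did not pass. Vcp, whose product pulls proteins out of the ER membrane, had 127, 107 and 125 FPKM in WT and 104, 110 and 94.8 FPKM in KO. These ranges overlapped, and Vcp did not pass (log2 fold change -0.22, adjusted p = 0.0674), but did without WT replicate 3 (adjusted p = 0.0241) and under quantile normalization (adjusted p = 0.00696). After trend removal Vcp was at -0.18 on the log2 scale (adjusted p = 0.118). With the trend removed 4 of the 24 were higher and none was lower in limma (2 lower at unadjusted p under 0.05). Of those 4, 3 were also higher as deposited.

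The 3 sensor genes Ern1, Atf6 and Eif2ak3 were lower in KO. Ern1, which encodes IRE1 alpha, the kinase and nuclease that splices Xbp1 mRNA, had 2.6, 2.09 and 2.92 FPKM in WT and 1.54, 1.63 and 0.945 FPKM in KO (log2 fold change -0.58, SE 0.14, adjusted p = 0.00896). Atf6, the sensor that is cut in the Golgi to release a transcription factor, had 6.78, 5.63 and 6.93 FPKM in WT and 4.08, 4.25 and 3.62 FPKM in KO (log2 fold change -0.58, SE 0.1, adjusted p = 0.002). Eif2ak3, the kinase PERK, had 8.68, 6.94 and 7.99 FPKM in WT and 6.44, 5.69 and 4.66 FPKM in KO (log2 fold change -0.43, adjusted p = 0.0159). In each of the 3 the KO libraries lay below the WT libraries.

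These sensors have long transcripts, from 4868 to 8186 nt, and none of the 3 passed with the length trend removed: the log2 fold changes were -0.26 for Ern1 (adjusted p = 0.172), -0.21 for Atf6 (adjusted p = 0.114) and -0.24 for Eif2ak3 (adjusted p = 0.142). Eif2ak3 also lost its call without KO replicate 4 (adjusted p = 0.0539), WT replicate 2 (adjusted p = 0.0536) or WT replicate 4 (adjusted p = 0.051), and with no expression filter Eif2ak3 (adjusted p = 0.0733) and Ern1 (adjusted p = 0.0597) did not pass. In the authors' deposited table the 3 genes had log2 fold changes of -0.82, -0.63 and -0.43 with q = 0.000348, 3.14e-07 and 0.00672 for Ern1, Atf6 and Eif2ak3. Atf6b, of the same family as Atf6 and named after its values were seen, was not lower. It had 39.6 ± 2.37 FPKM in WT and 43.6 ± 1.3 in KO, without overlap, and was not called (log2 fold change 0.14, adjusted p = 0.138). After trend removal its log2 fold change was 0.06 (adjusted p = 0.469), and the authors' deposited table gives 0.20 (q = 0.0493).

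Downstream of the sensors, Xbp1 and Ddit3 were higher, Ppp1r15a was lower and Atf4 did not pass. Xbp1 (gene ID 22433, chromosome 11, 5520641 to 5525993), the transcription factor gene whose mRNA IRE1 splices, was higher, with 75.7, 68.3 and 77.3 FPKM in WT and 94.1, 86.7 and 92.5 FPKM in KO (log2 fold change 0.30, adjusted p = 0.00889). The values count all Xbp1 transcripts and do not separate spliced from unspliced mRNA. With the length trend removed the log2 fold change was 0.18 (adjusted p = 0.0606), and with quantile normalization it was also 0.18 (adjusted p = 0.0551). The ratio of Xbp1 to Ern1 was 26.5 to 32.8 in WT and 53.3 to 97.9 in KO. Plasma cells express much Xbp1, and their markers were read beside it. Jchain was at 0 in 5 libraries and at 0.0252 FPKM in KO replicate 2, and Tnfrsf17 was at 0 in each KO library. Mzb1 ranged from 0.224 to 0.327 in WT libraries and from 0.505 to 1.29 in KO libraries, without overlap and under the expression filter. The ranges of the other markers overlapped. Sdc1 had 10.1 to 11.1 FPKM in WT and 9.16 to 10.3 in KO. Derl3 had 0.257 to 0.491 and 0.103 to 0.28, and Irf4 0.0214 to 0.09 and 0.0276 to 0.162. The part of plasma cells in the Xbp1 difference was not tested.

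On the PERK side, Atf4, the transcription factor translated when PERK is active, had 137 ± 15.8 and 139 ± 12 FPKM (log2 fold change 0.03, adjusted p = 0.828), a difference well inside the replicate spread whose sign turned with quantile normalization (-0.13) and with the trend removed (-0.19). Ddit3, its proapoptotic target CHOP, was higher, with 6.98, 7.03 and 7.01 FPKM in WT and 8.1, 9.16 and 9.58 FPKM in KO (log2 fold change 0.31, adjusted p = 0.0161). Ddit3 no longer passed without KO replicate 4 (adjusted p = 0.0556) or WT replicate 4 (adjusted p = 0.0526) or after trend removal (log2 fold change 0.23, adjusted p = 0.082). Ppp1r15a, which encodes the phosphatase subunit GADD34 that ends the PERK response, was lower, with 35.4, 32.1 and 36.7 FPKM in WT and 22.3, 23.2 and 21.7 FPKM in KO. WT was far above KO in every library (log2 fold change -0.61, SE 0.07, adjusted p = 0.000532), and the log2 fold change was -0.72 with the trend removed (adjusted p = 0.00105). Of the 21 tested genes of the stress list 3 were higher and 8 lower, and with the trend removed Ppp1r15a was the 1 lower gene and none was higher in limma (4 higher at unadjusted p under 0.05).

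**Figure D4:**
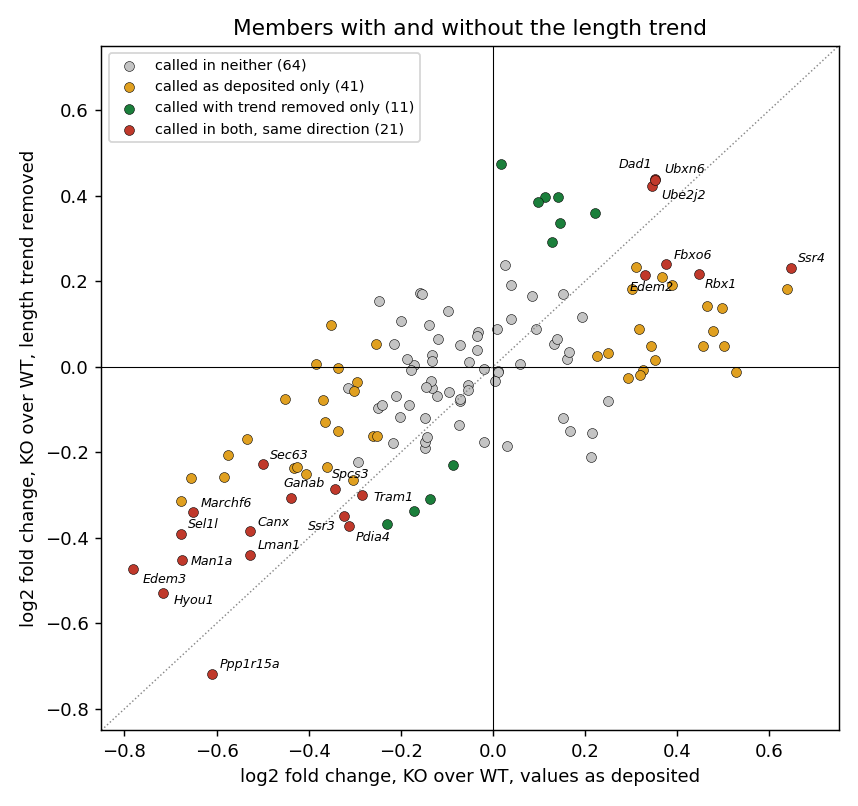
Log2 fold change in KO over WT of the 137 tested members as deposited (x axis) and with the length trend removed (y axis), coloured by where they passed; the dotted line marks equal values. The 21 genes that passed in both, named in the plot, are 7 higher ones led by Dad1, Ubxn6 and Ube2j2 on the y axis and 14 lower ones led by Ppp1r15a and Hyou1.

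Related genes outside the set were counted in the same way. Over all tested genes 18.3% were higher and 25.8% lower, and 9.26% and 9.42% after trend removal. The 4 outside lists had median implied lengths of 2208 to 2437 nt, against 3429 nt for all tested genes. In the list of the ER membrane complex and tail-anchor insertion, which place other membrane proteins, 8 of 16 tested genes were higher and 2 lower (50% and 12.5%). With the length trend removed 1 was higher and 1 lower, and of these only the lower one was also called as deposited. Emc4 went from 32.9 ± 0.933 to 40.1 ± 1.97 FPKM (adjusted p = 0.00963; log2 fold change -0.08 with the trend removed), and Mmgt1 from 6.09 ± 0.747 to 4.04 ± 0.322 (adjusted p = 0.00503, and adjusted p = 0.031 with it removed). Of 8 p24 cargo receptor genes, which select cargo for COPII, 2 were higher and 1 lower (25% and 12.5%). Once the trend was removed none was higher in limma (none at unadjusted p under 0.05) and 2 were lower, 1 of them also as deposited. Tmed3 went from 44.4 ± 5.45 to 59.8 ± 5.51 FPKM (adjusted p = 0.00775, and 0.358 after trend removal) and Tmed7 from 25.7 ± 2.17 to 19.6 ± 0.561 (adjusted p = 0.005, and 0.0138). Of 19 tested genes that build the dolichol-linked glycan 4 were higher and 2 lower (21.1% and 10.5%). After trend removal there were 2 and 2, of which 1 and 1 were also called as deposited. Among them Dpm3, a subunit of the mannose donor enzyme, went from 29.4 ± 3.26 to 46.2 ± 4.73 FPKM (adjusted p = 0.00113, and 0.0993 after trend removal), and Alg10b, the last glucosyltransferase of the assembly, from 4.72 ± 0.473 to 2.32 ± 0.464 FPKM (adjusted p = 0.00112), with a log2 fold change of -0.70 once the trend was removed (adjusted p = 0.00599).

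The list of unfolded protein response targets had 3 lower and no higher gene of 12 in limma (1 higher at unadjusted p under 0.05, and 1 with limma-voom). The 25% that were lower lay close to the 25.8% of all tested genes, of which 18.3% were higher. With the trend removed 4 of the 12 were lower, against 9.42% of all tested genes. Of these 4, 3 were also lower as deposited. Hsp90b1, the lumenal chaperone GRP94, went from 214 ± 30.9 to 146 ± 18.2 FPKM (adjusted p = 0.00612, adjusted p = 0.0108 with the trend removed and adjusted p = 0.0507 with no expression filter) and Dnajc3, a cochaperone of BiP, from 23.1 ± 2.13 to 15.2 ± 1.4 FPKM (adjusted p = 0.0014, and adjusted p = 0.0165). Of the 30 pathway genes left out of the set, 28 were tested, and 11 were lower and 2 higher. These were 39.3% and 7.14%, against 25.8% and 18.3% of all tested genes. The third lower target, Hspa5, which encodes BiP and is named after its values were seen, had 210, 146 and 190 FPKM in WT and 129, 157 and 113 in KO. Its ranges overlapped (adjusted p = 0.0317, and 0.0367 after trend removal). Hspa5 lost its call without KO replicate 2 (adjusted p = 0.0753), KO replicate 4 (adjusted p = 0.119), WT replicate 2 (adjusted p = 0.0992) or WT replicate 4 (adjusted p = 0.0935), with a replicate block (adjusted p = 0.0634) and with no expression filter (adjusted p = 0.15).

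The 14 members under the expression filter included Srp54b, Immp2l, Uggt2, Lman1l, Ero1b, Sec31b, Derl3, Yod1, Fbxo2, Mapk10, Arxes1, Arxes2 and Tram1l1. Each of those named had a mean of less than 1 FPKM in both genotypes, and none was fitted. Of these, Yod1, a deubiquitinase gene named after its values were seen, had 0.867, 0.971 and 1.06 FPKM in WT and 0.379, 0.665 and 0.332 in KO, without overlap, and the authors' deposited table gives it a log2 fold change of -1.01 (q = 0.0136). The tested members had at least 93 reads in every library.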

How the data were processed

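Sample titles gave the group and replicate number of each library. The labels' protocols name TRIzol extraction and a stranded TruSeq mRNA kit. The authors deposited FPKM per gene and library, and a second deposited table with each group's mean normalized signal, the ratio of those means as a fold, its log2 value, a p-value and a q-value, per the file headers. Per the submitters' processing notes, which give no roles, the mm10 build was used with DESeq2 1.22.1, featureCounts 1.6.2, fastp 0.19.3, GATK 4.0.11.0, StringTie 1.3.4d, HISAT2 2.1.0 and Cufflinks.

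Values were tested with limma 3.58.1 in R 4.3.3, with a mean-variance trend and genotype as the model, on log2(FPKM + 1), which understates changes of low genes. Whole reads and implied lengths were derived from FPKM and the deposited group means (100.0% of values up to 1000 reads whole within 0.05 reads), and 150 members had them. The length trend was a lowess curve (span 0.3) of each library's deviation from the gene mean on log2 length. The fit and the trend removal were checked on simulated data. Other settings were quantile normalization, median-ratio scaling, no filter, a filter at 5 FPKM, 0.1 as the pseudocount, an adjusted p under 0.01, the replicate number as a block, limma-voom on recovered reads, and each library left out. The members and lists were chosen with earlier results of these data known. Named genes were a fixed set of 23 and, per list, up to 4 called genes with the smallest p and the uncalled gene with the highest mean FPKM; per outside list, 2 called genes. Coordinates are RefSeq's for GRCm38.p6, to which all 151 members matched by gene ID. Summaries were made in Python 3.11.15 (pandas 2.3.3, numpy 2.4.6, matplotlib 3.10.9, scipy 1.17.1). Of the members under the expression filter, 1 is not reported here.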

Additional observations from a re-analysis of the deposited data

How the results depend on the processing

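The tested members had at least 93 reads in every library, after the expression filter had left out 14 members. Each genotype had 3 libraries. The part of depth and of library number in the precision was not tested. With the length trend removed, 1001 genes were called higher and 1018 lower over all genes; the members had 14 and 18, translocation 2 higher, and degradation and stress 9 and 5. Nothing states whether the replicate numbers pair the samples. In deviations from the group means, same-numbered libraries correlated at -0.195, -0.349 and -0.222 and the other WT and KO combinations at 0.002 to 0.199. With 3 libraries per genotype these values cannot decide whether the samples were paired. With the replicate number as a block, degradation and stress had 10 lower genes. The replicate block with the length trend removed gave 309 higher and 407 lower genes over all, 2 and 2 members, 0 and 0 in translocation, 0 lower in glycosylation, and 1 and 2 in degradation and stress. At an adjusted p under 0.01 there were 1085 and 1704 over all, 18 lower members, 1 lower in translocation and 6 in degradation and stress. With no expression filter 21 members, 2 translocation and 7 degradation and stress genes were lower. Quantile normalization gave 14 lower glycosylation genes, and median-ratio scaling and limma-voom gave 2 higher. The translocon and signal sequence receptor lists alone had 4 higher genes. Apart from fewer samples, fewer genes, a stricter threshold or the trend itself, the cause was not tested. With 1 library left out, all genes had 1411 to 1998 higher and 1981 to 2681 lower, members 23 to 33 and 21 to 41, translocation 8 to 10 and 2 to 5, glycosylation 1 to 2 and 7 to 9, and degradation and stress 12 to 17 and 8 to 18. Some named genes changed sign, among them Sec61b, Ssr2, Erp29, Sec24c and Emc4, which were called as deposited. With the length trend removed, with or without the block, Sec61b was at -0.013, Ssr1 at 0.153, Ssr2 at -0.027, Atf4 at -0.186, Srpr at -0.009, Erp29 at -0.007, Sec24c at 0.054, Sec13 at -0.15 and Emc4 at -0.084 on the log2 scale. Quantile normalization gave -0.126 for Atf4 and -0.106 for Srpr. Herpud1 was at 0.033 with limma-voom and 0.032 with median-ratio scaling. With 1 library left out, Sec61a1 ranged from -0.144 to 0.012, Atf4 from -0.069 to 0.086, Srpr from -0.026 to 0.038 and Herpud1 from -0.051 to 0.015.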
